A study of Mus musculus with 37 samples.

Results

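The genes described are those that encode the subunits of oxidative phosphorylation, together with a few proteins that share their gene symbols' prefixes. They were taken by symbol, as genes that begin with Nduf (complex I), Sdha to Sdhd (complex II), Uqcr (complex III), Cox4 to Cox8 (complex IV) or Atp5 (complex V). The rule used no measured difference, only the mean signal over all arrays where a gene had several transcript clusters. It found 89 of the 19938 genes tested, with 43 in complex I, 4 in complex II, 8 in complex III, 17 in complex IV and 17 in complex V. Of these, 81 were structural subunits and 8 were not, namely 7 Ndufaf assembly factors and Cox7a2l, which is known to join complexes into supercomplexes. Ndufa4 and Ndufa4l2 were counted under complex I by their prefix, although Ndufa4 is now known as a subunit of complex IV. None of the 13 subunits encoded by mitochondrial DNA was found by symbol among the annotated clusters.

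The data are 37 Affymetrix Mouse Gene 1.0 ST arrays of colon RNA, each from its own mouse. Wild-type mice were of the C57BL/6J strain, and knockout mice of the line B6.129S4-Timp1tm1Pds/J carry a targeted allele of Timp1, which encodes an inhibitor of metalloproteinases. Colitis was produced by feeding dextran sodium sulphate (DSS), a polysaccharide that injures the lining of the colon. An acute and a chronic model were made, and each has its own controls. Among acute animals there were 3 controls and 5 DSS mice of the wild type and 3 controls and 6 DSS mice of the knockout, while the 4 chronic groups had 5 mice each. The age and sex of the animals and the dose and duration of DSS are not given in the sources used here. Y-linked genes had a high mean signal in 2 arrays only, knockout acute control 2 (9.88) and knockout acute DSS array 4 (9.605). The other arrays lay between 5.125 and 5.434. Both arrays are of the acute knockout, and fits without them are among the alternatives at the end. Because RNA came from the whole frozen colon, fewer cells of a type and less RNA per cell cannot be told apart in any value below.

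Oxidative phosphorylation is the last stage of cellular respiration, carried out in the inner mitochondrial membrane. Complexes I and II take electrons from NADH and succinate, complex III passes them to cytochrome c, complex IV hands them to oxygen, and complex V, the ATP synthase, uses the resulting proton gradient to make ATP. Several complex IV subunits come in pairs, a form made in most tissues and a form made mainly in muscle, lung or testis. Colonocytes, the absorptive cells of the colonic surface, are known to depend on mitochondrial oxidation of butyrate.

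Values are deposited log2 signals, in which a difference of 1 is a doubling. Differences are given with their standard error from a linear model over all 37 arrays, and a gene passed where its Benjamini-Hochberg adjusted p over all 19938 genes was under 0.05. The numbers in the animal names fall into 4 series, which may mark batches. Knockout and wild-type acute controls come from different series, as do knockout and wild-type chronic DSS mice, so genotype and series cannot be told apart there. For Timp1 itself the knockout minus wild-type difference was -3.14 ± 0.33 under acute DSS (adjusted p = 1.34e-07) and -0.62 ± 0.44 between acute controls (adjusted p = 0.608). Which part of the gene the allele removes is not given in the sources used here. The acute wild-type DSS arrays 1 and 3 stood apart from the other 3, with mean signals of the 7 colonocyte markers of 10.91 and 9.23, against 12.53 to 12.77 in the others and 12.71 to 12.88 in the controls. Results of that group are therefore also given without both arrays, a choice made after seeing the data.

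Promoter sequences are shown for 4 members that the results below turn on. Cox7a1 is the member that fell most under acute DSS and Cox6b2 the one that rose most, and Cox6a1 and Ndufa11 are members that fell and whose promoters hold the core of the NRF1 motif. The sequences are the 250 bases before the annotated start site, 5′ to 3′ on the strand of the gene, from RefSeq on GRCm38.p6, with that core in capitals. They lie at chr7:30183921-30184170 (plus strand, Cox7a1), chr7:4753095-4753344 (minus strand, Cox6b2), chr5:115348959-115349208 (minus strand, Cox6a1) and chr17:56717512-56717761 (plus strand, Ndufa11).
Cox7a1: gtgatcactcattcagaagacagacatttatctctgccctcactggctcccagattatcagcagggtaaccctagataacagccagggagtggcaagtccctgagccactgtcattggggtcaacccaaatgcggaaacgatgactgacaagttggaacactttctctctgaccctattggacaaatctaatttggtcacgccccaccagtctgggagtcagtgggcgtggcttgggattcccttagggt
Cox6b2: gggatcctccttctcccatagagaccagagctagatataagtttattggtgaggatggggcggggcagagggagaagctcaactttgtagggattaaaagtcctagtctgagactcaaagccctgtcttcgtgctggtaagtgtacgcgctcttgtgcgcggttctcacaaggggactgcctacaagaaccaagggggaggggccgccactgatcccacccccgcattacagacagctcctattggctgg
Cox6a1: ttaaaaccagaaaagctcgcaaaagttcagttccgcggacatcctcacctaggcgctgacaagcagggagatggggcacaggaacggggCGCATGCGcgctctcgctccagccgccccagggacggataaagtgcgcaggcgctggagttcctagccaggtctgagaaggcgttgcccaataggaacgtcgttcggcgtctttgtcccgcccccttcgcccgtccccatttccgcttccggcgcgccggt
Ndufa11: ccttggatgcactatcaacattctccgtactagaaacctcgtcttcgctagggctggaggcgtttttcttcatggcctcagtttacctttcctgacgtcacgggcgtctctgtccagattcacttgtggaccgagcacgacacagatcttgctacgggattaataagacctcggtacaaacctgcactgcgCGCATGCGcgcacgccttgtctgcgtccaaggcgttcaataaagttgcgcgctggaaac
The capitals in Cox6a1 stand 161 to 154 bases before the start and those in Ndufa11 59 to 52 bases before it. Promoters were found for 73 of the 89 members, and 3 motifs were searched in the 300 bases from 250 before to 50 after each start, on both strands. NRF1 is a known activator of nuclear genes for respiratory subunits, and the 8-letter core CGCATGCG, which reads the same on both strands, was present in 11 of 73 members (15.1%), against 2.07% of 27025 genes with a promoter in the table. The members that held it were Atp5g2, Atp5j, Atp5k, Atp5l, Cox6a1, Ndufa8, Ndufa11, Ndufaf4, Ndufaf5, Uqcr11 and Uqcrc1. That core was chosen after a longer form had been searched, and counts for the longer form are not given here. The motif TCAAGGTCA, bound by the oestrogen-related receptors, was present in 2 members (2.74%, against 0.466%), Atp5g3 and Sdhd. The ETS motif CCGGAAGT was present in 5 members (6.85%, against 4.31%), Atp5h, Cox8a, Ndufs3, Uqcr11 and Uqcrh. Only Uqcr11 held 2 of the 3 motifs, and a match describes letters in a window, not binding.

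The mean signal of each complex's members was lowest in the wild-type acute DSS group. For complex I the acute wild-type controls averaged 10.24 ± 0.05 (SD, n = 3) and the acute wild-type DSS mice 9.70 ± 0.19 (n = 5), against 10.13 ± 0.08 (n = 3) and 10.03 ± 0.09 (n = 6) in the knockout controls and DSS mice. For complex V the same groups stood at 11.82 ± 0.02, 11.33 ± 0.24, 11.71 ± 0.07 and 11.65 ± 0.10. In all 5 complexes every wild-type acute DSS array lay below every wild-type acute control. In the chronic phase the 4 group means of complex I lay between 9.95 and 9.98, and those of complex V between 11.45 and 11.60. The chronic controls of both genotypes were lower than the acute controls in complexes I and V, with no overlap, but they belong to other animal-number series and this was not tested.

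**Figure D1:**
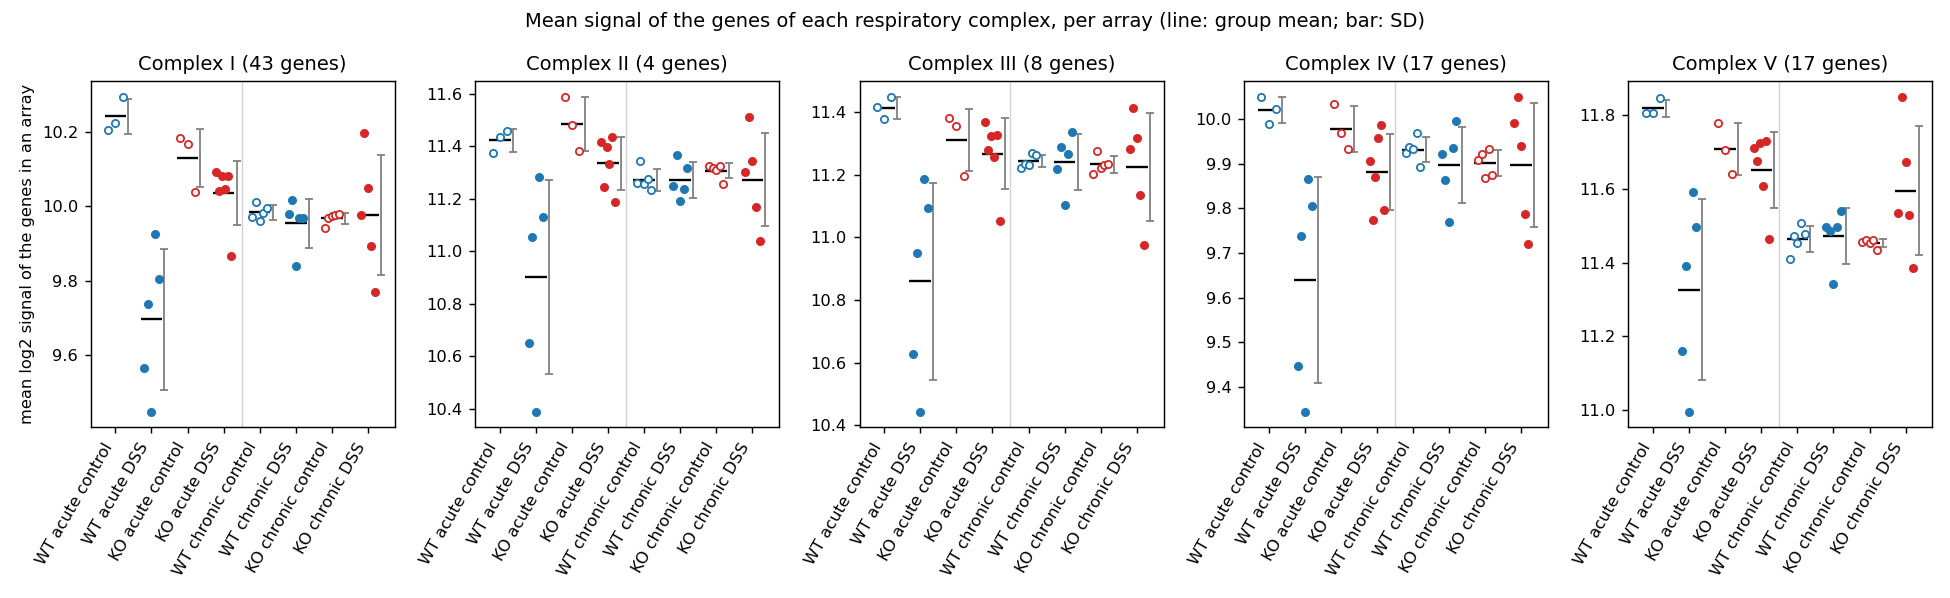
Mean log2 signal of the genes of complexes I to V in each array (points) by group, with the group mean (line) and SD (bar); open points are controls and filled points DSS, blue wild type and red knockout, and the vertical axes differ between panels. The wild-type acute DSS group has the lowest mean in each complex, and its arrays 1 and 3 are the lowest of all 37.

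Acute DSS in the wild type was followed by lower signals of most respiratory subunits in every complex. Of the 89 members 69 fell and 5 rose, where 21.8% of all genes fell and 19.4% rose, and the median difference was -0.50 over the members and 0.01 over all genes. The fall covered 37 of 43 genes of complex I (median -0.52), 3 of 4 of complex II (-0.58), 7 of 8 of complex III (-0.55), 9 of 17 of complex IV (-0.30) and 13 of 17 of complex V (-0.48). In 69 members (77.5%) every DSS array lay below every control, against 21.4% of all genes. Without arrays 1 and 3 of the DSS group 56 members fell and 2 rose, the median was -0.32, and 16.6% of all genes fell.

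The largest fall was that of Cox7a1, the heart and muscle form of complex IV subunit 7a. Its signals were 10.78, 10.58 and 10.87 in the wild-type acute controls and 7.23, 8.03, 7.09, 9.32 and 9.53 in the DSS arrays. All 5 DSS arrays were lower than the 3 controls, and arrays 1 to 3 were lower than arrays 4 and 5. The difference was -2.50 ± 0.36, a 5.67-fold fall (adjusted p = 2.99e-06), and -1.78 without arrays 1 and 3 (adjusted p = 4.13e-05). Markers of skeletal muscle moved with it in part: Myh2 fell by 0.40 and Acta1 by 0.35 on the log2 scale, as 2 of the 4 listed, and the mean of the list was 8.05 to 8.27 in controls and 7.85 to 8.01 under DSS. None of 6 smooth muscle markers passed (median -0.09), and the part of muscle cells in the fall of Cox7a1 was not tested.

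Among the core subunits of complex I, Ndufs1, Ndufs7, Ndufs8, Ndufv1 and Ndufv2, which carry its flavin and iron-sulphur centres, all fell. Ndufv1 fell by 0.64 and Ndufs1 by 0.52, while Ndufv2 fell by 0.26. The accessory subunit Ndufa1, needed for assembly of the membrane arm, fell more. Its signals were 9.76, 9.74 and 9.91 in controls and 7.82, 8.48, 8.25, 8.77 and 8.40 under DSS. Every control was above every DSS array, and the difference was -1.46 ± 0.17, a 2.75-fold fall (adjusted p = 1.32e-07). The fall of Ndufs8, at -0.34 ± 0.13 (adjusted p = 0.0345), no longer passed when any 1 of 6 arrays was left out, namely DSS arrays 1, 2 or 3 or any control, nor with cyclic loess (-0.20, adjusted p = 0.126).

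In complex II the iron-sulphur subunit Sdhb, the flavoprotein Sdha and the membrane anchor Sdhd fell, and the other anchor, Sdhc, did not pass (-0.16 ± 0.12). Sdhd stood at 10.94, 11.11 and 11.07 in controls and at 9.97, 10.50, 9.62, 10.76 and 10.49 under DSS. The groups did not overlap, and the difference was -0.77 ± 0.15 (adjusted p = 0.000102). In complex III the core proteins Uqcrc1 and Uqcrc2 fell by 0.57 and 0.53 and the Rieske iron-sulphur protein Uqcrfs1 by 0.62. The small subunit Uqcr10 stood at 10.70, 10.66 and 10.86 in controls and 9.34, 9.71, 9.14, 10.15 and 9.83 under DSS. Every DSS array was lower, and the difference was -1.11 ± 0.14 (adjusted p = 8.92e-07).

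In complex V the catalytic alpha subunit Atp5a1 fell by 0.56 and the gamma subunit Atp5c1 by 0.63, but the catalytic beta subunit Atp5b did not pass (-0.14 ± 0.07, adjusted p = 0.121). All 3 genes of the c ring passed, with Atp5g1 at -0.37, Atp5g2 at -0.52 and Atp5g3 at -0.44. The epsilon subunit Atp5e, part of the central stalk, stood at 10.26, 10.31 and 10.59 in controls and 8.92, 9.34, 9.04, 9.56 and 9.20 under DSS. The groups did not overlap and the difference was -1.17 ± 0.14, a 2.26-fold fall (adjusted p = 3.81e-07).

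Complex IV differed among its own isoforms. Cox5a and Cox5b, which are separate subunits and not isoforms of each other, fell by 0.83 and 0.74. Of the widely expressed forms with an isoform partner, Cox4i1 fell by 0.74, Cox6a1 by 1.16, Cox6b1 by 0.41, Cox7a2 by 0.51 and Cox8a by 0.42. For Cox7b, the partner of Cox7b2, the result depended on the transcript cluster. The kept cluster did not pass (-0.15 ± 0.08, adjusted p = 0.165), and the other was at -0.33 (adjusted p = 0.0346). Cox7b is named after its values were seen. Of the forms known from restricted tissues, Cox6b2 (testis), Cox8b and Cox6a2 (heart and skeletal muscle) and Cox4i2 (lung) rose, as did Ndufa4l2, a hypoxia-inducible relative of Ndufa4. Cox7a1 was the exception among the restricted forms, and Cox8c (0.21 ± 0.09, adjusted p = 0.076) and Cox7b2 (-0.13 ± 0.09) did not pass. Cox6b2 stood at 7.59, 7.86 and 7.70 in controls and 8.39, 8.43, 8.44, 8.11 and 8.00 under DSS. All 5 DSS arrays were above the controls, and the rise was 0.55 ± 0.12, or 1.47-fold (adjusted p = 0.000481). The other 4 rises were smaller, with Cox8b at 0.46 ± 0.17, Cox6a2 at 0.32 ± 0.09, Ndufa4l2 at 0.24 ± 0.09 and Cox4i2 at 0.17 ± 0.06. All 5 genes that rose were dim. Their mean signals over all arrays lay at percentiles 31.35 (Ndufa4l2) to 48.63 (Cox4i2) of all genes, against a median of 91 over the members. Cox8b, Ndufa4l2 and Cox4i2 each lost the call when any 1 of 4 arrays was left out, DSS array 1 among them in each case, and Cox6a2 when control 3 was left out. With cyclic loess Cox8b (0.37, adjusted p = 0.0817) and Ndufa4l2 (0.14, adjusted p = 0.214) did not pass. With arrays 1 and 3 left out together, the 2 members that rose were Cox6a2 and Cox6b2, the latter at 0.46 (adjusted p = 0.00966). In 4 members every DSS array lay above every control, against 17.7% of all genes.

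**Figure D2:**
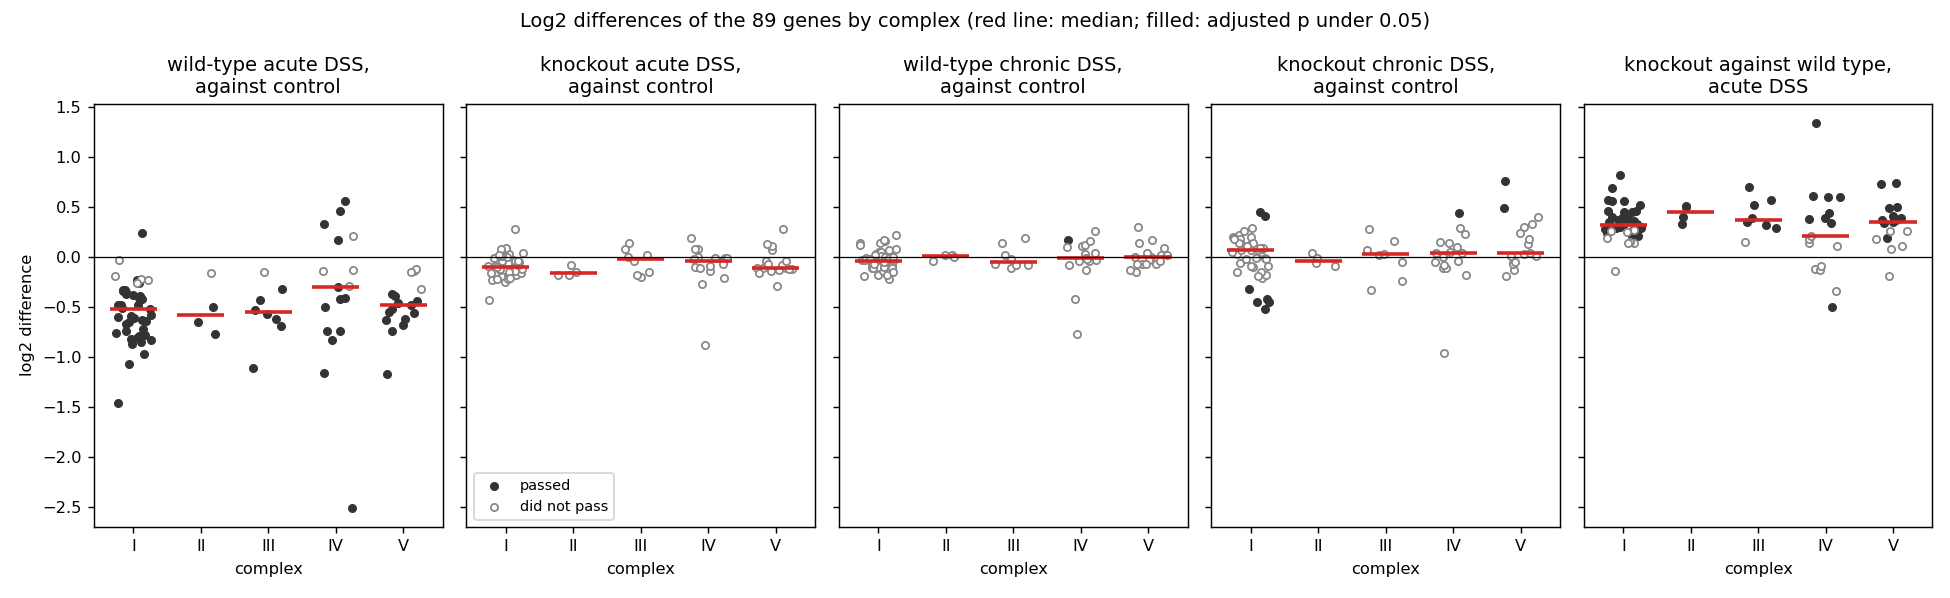
Log2 differences of the 89 genes (points) by complex in 5 comparisons, with the median of each complex (red line); filled points passed. In the wild type under acute DSS the medians lie between -0.58 and -0.30, in the other 3 DSS comparisons they lie between -0.17 and 0.07, and under acute DSS the knockout lies above the wild type in most genes.

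Other genes of mitochondrial energy metabolism, taken from lists that name no member, changed in the same comparison. Of 36 further assembly factors 29 fell and none rose (median -0.50), with Cox14, a complex IV assembly factor, at -1.13 ± 0.16. Of 18 genes of the citric acid cycle and pyruvate dehydrogenase 14 fell (median -0.45), with Suclg1, a subunit of succinyl-CoA ligase, at -0.93 ± 0.17. Fatty acid oxidation showed 11 falls and 1 rise among 17 genes (median -0.53). Of 15 regulators of mitochondrial biogenesis 9 fell, led by the coactivator Ppargc1a at -2.09 ± 0.32 (adjusted p = 6.75e-06) and the receptor Esrrg at -1.46 ± 0.18. Cyc1, the cytochrome c1 of complex III, fell by 0.57 on the log2 scale, and mitochondrial import and carrier genes gave 13 falls and 1 rise among 21. Glycolysis was mixed, with 4 rises and 5 falls among 16 genes.

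Markers of cell types changed in the same arrays. Of the 7 epithelial markers 6 fell and of the 7 colonocyte markers 4 fell (median -1.03), with no marker of either list higher. Neutrophil markers rose in 5 of 5 (median 3.61), fibroblast markers in 5 of 6 (1.29), endothelial markers in 3 of 5 (0.84) and macrophage markers in 3 of 5 (0.75). Leukocyte markers rose in 3 of 4 (0.95) and adipocyte markers in 1 of 4 (0.91), and 1 of 4 goblet cell markers fell (-0.32). The mean of the epithelial list was 12.58 to 12.64 in controls and 11.13 to 12.47 under DSS, and that of the neutrophil list 6.13 to 6.18 and 8.57 to 11.11. In DSS arrays 2, 4 and 5 the epithelial mean was 12.43 to 12.47, below the controls at 12.58 to 12.64. The complex I mean of these arrays was 9.74 to 9.92, also below the controls, at 10.20 to 10.29. The part of these cell types in the fall of the subunits was not tested.

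In the knockout no member passed under acute DSS, where 0.853% of all genes fell and 0.266% rose. The limma test at an unadjusted p under 0.05 gave 6 members (6.74%), against 16.3% of all genes, and 70 of 89 differences were below 0, with a median of -0.10. Cox7a1 stood at 10.59, 10.52 and 10.27 in the knockout controls and ranged from 8.70 through a median of 9.72 to 9.84 in the 6 DSS arrays. All 6 were below the controls, yet the difference of -0.88 ± 0.35 did not pass (adjusted p = 0.194). It was the 1 member lower without overlap, against 3.68% of all genes, and 1 member was higher without overlap, against 2.79%. Ndufa1 was -0.43 ± 0.16 (adjusted p = 0.174) and Atp5e -0.29 ± 0.14 (adjusted p = 0.295), and for both genes DSS and control arrays overlapped. Within the animal-number series that held the controls and DSS arrays 4 to 6, none of the 19938 genes passed, members included, and the member median was -0.12. Leaving out DSS array 5 gave 1 member that fell. Among the lists of energy metabolism, 1 of 15 biogenesis regulators fell (lowest value -0.88) and 1 of 16 glycolysis genes rose, with no other call.

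The knockout DSS mice had higher signals of most members than the wild-type DSS mice. Of the 89 members 65 were higher and 1 was lower in the knockout, where 15.8% of all genes were higher and 15.2% lower, and the median was 0.34. The higher members were 35 of 43 in complex I, 4 of 4 in complex II, 7 of 8 in complex III, 8 of 17 in complex IV and 11 of 17 in complex V. In 8 of the 89 (8.99%) every knockout array was above every wild-type array, against 2.96% of all genes, and in none was it below, against 3.04%. The count fell to 13 without wild-type DSS arrays 1 and 3 (5.5% of all genes), to 14 within the series that held all wild-type arrays and knockout arrays 1 to 3 (6.62%), and to 19 in a fit of these 2 groups alone (4.4%). The median was 0.18, 0.38 and 0.34 in these fits.

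Cox7a1 again showed the largest difference, 1.34 ± 0.30 or 2.53-fold higher in the knockout (adjusted p = 0.000896). Its 6 knockout DSS arrays spanned 8.70 to 9.84 and the 5 wild-type DSS arrays 7.09 to 9.53, so the groups overlapped. Without wild-type arrays 1 and 3 the difference was 0.62 (adjusted p = 0.102), and within the shared series it was 1.52 (adjusted p = 0.111). Ndufa1 ranged from 8.68 through 9.13 to 9.70 in the knockout and from 7.82 through 8.40 to 8.77 in the wild type. The lowest knockout array lay below the highest wild-type array and the others above it, and the difference was 0.81 ± 0.14 (adjusted p = 5.55e-05), or 0.61 without wild-type arrays 1 and 3 (adjusted p = 0.00561). Atp5mpl, a small subunit of the ATP synthase, did not overlap, at 11.04 to 11.85 in the knockout and 10.10 to 10.97 in the wild type, with a difference of 0.73 ± 0.14 (adjusted p = 0.00019). Sdhb was 0.51 ± 0.11 higher (adjusted p = 0.000544) and Uqcr10 0.69 ± 0.12 (adjusted p = 6.27e-05).

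Cox6b2 was the 1 member lower in the knockout under acute DSS, at -0.51 ± 0.10 (adjusted p = 0.000283). Its knockout arrays fell into the animal-number series: arrays 1 to 3 stood at 7.50, 7.54 and 7.56 and arrays 4 to 6 at 7.88, 8.02 and 8.09. The wild-type arrays spanned 8.00 to 8.44, so only the second of these series overlapped them, and within the shared series the difference was -0.74 (adjusted p = 0.00902). Ndufs8 and Atp5md showed the same division. Ndufs8 was 11.47 to 11.55 in knockout DSS arrays 1 to 3 and 10.93 to 11.16 in arrays 4 to 6, and Atp5md was 11.93 to 12.03 and 10.62 to 11.03. For neither gene did the genotypes differ at an adjusted p under 0.05 in the fit of all arrays, at 0.25 ± 0.11 and -0.19 ± 0.20, while with series as a covariate both were higher in the knockout, at 0.48 (adjusted p = 0.000969) and 0.40 (adjusted p = 0.039). Within the shared series alone these differences had adjusted p = 0.0427 and 0.0666.

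The test of whether the acute DSS effect differed between genotypes passed for 37 members, with 36 less negative in the knockout and 1 more negative. Over all genes 6.51% passed upward and 5.75% downward, and the member median was 0.43. In 83 of 89 members the wild-type difference lay below the knockout difference. The members that passed were 21 in complex I, 3 in complex III, 6 in complex IV and 7 in complex V, and none of the 4 in complex II, where the 4 values ran from 0.08 to 0.59. The differences were 1.62 ± 0.50 for Cox7a1 (adjusted p = 0.0305), 1.03 ± 0.23 for Ndufa1 (adjusted p = 0.00587), 0.96 ± 0.20 for Uqcr10 (adjusted p = 0.00388) and -0.57 ± 0.17 for Cox6b2 (adjusted p = 0.0249). Cox7a1 lost this call without any 1 of 7 arrays (wild-type controls 1 to 3, wild-type DSS 1 or 3, knockout controls 1 or 3), and Cox6b2 without wild-type control 1 or 3 or knockout control 1. Cox6b2 also did not pass with series as a covariate (-0.34, adjusted p = 0.144), in a fit of the 4 acute groups alone (-0.57, adjusted p = 0.122) or without wild-type DSS arrays 1 and 3 (-0.47, adjusted p = 0.0984). The count of positive calls was 17 without knockout control 3, 21 without wild-type control 3, 55 without knockout DSS array 6 and 57 without wild-type DSS array 4. It was 14 without wild-type DSS arrays 1 and 3, where 3.47% of all genes passed upward, and 9 in a fit of the 4 acute groups alone, where 1.55% did. In both of those fits Cox7a1 did not pass, at 0.90 (adjusted p = 0.15) and 1.62 (adjusted p = 0.157), whereas Uqcr10 passed at 0.70 (adjusted p = 0.015) and 0.96 (adjusted p = 0.0452). Each DSS group of this test was taken against controls of its own genotype, but not always of its own series. The knockout controls and knockout DSS arrays 4 to 6 are of 1 animal-number series, and all other acute arrays are of another. With series as a covariate 25 members passed upward, where 3.84% of all genes did. The series shift in that fit comes from the knockout DSS arrays alone and is assumed equal in controls. The wild-type DSS arrays are shared with the genotype comparison above.

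**Figure D3:**
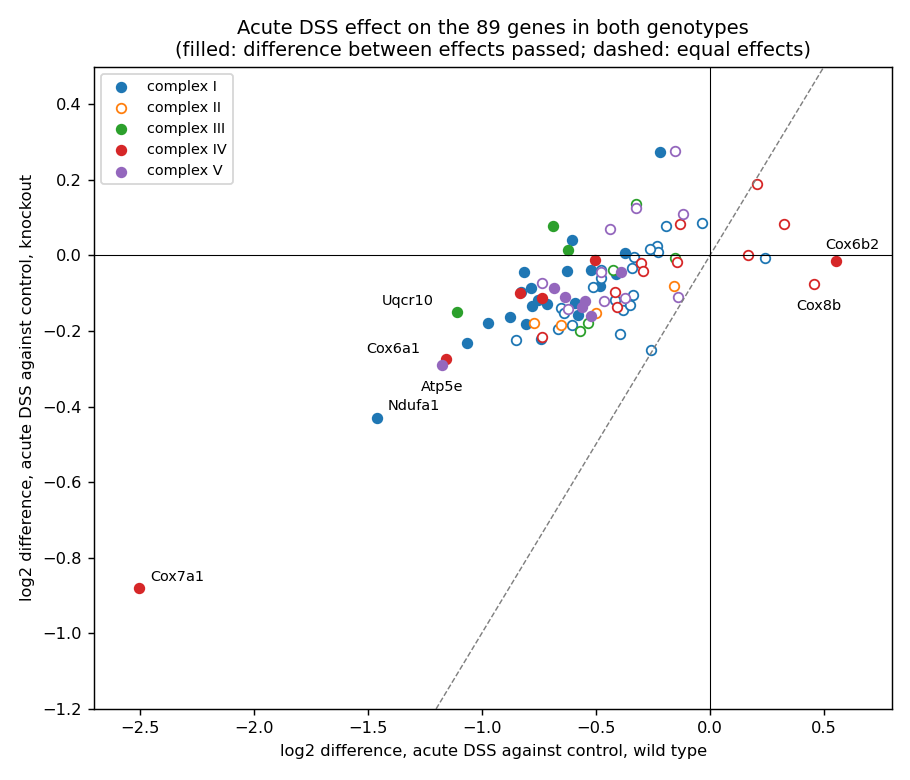
Log2 difference between acute DSS and control in the knockout (vertical axis) against the wild type (horizontal axis) for the 89 genes, coloured by complex; filled points passed the test of the difference between the 2 effects, and the dashed line marks equal effects. Of the points, 83 lie above the dashed line, Cox7a1 farthest to the left and Cox6b2 farthest to the right.

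The lists outside the complexes also differed between the genotypes under acute DSS. Of the assembly factors 23 of 36 were higher in the knockout, of the citric acid cycle genes 15 of 18, of fatty acid oxidation 8 of 17, and of the biogenesis regulators 5 of 15, with none lower in any of these lists. Import and carrier genes gave 6 higher and 1 lower among 21, and glycolysis 6 higher and 1 lower among 16. Ppargc1a was higher in the knockout by 1.57 ± 0.26 (adjusted p = 4.5e-05) and Ppargc1b by 0.80 ± 0.17. Cell type markers differed in the same comparison: 4 of 7 epithelial and 3 of 7 colonocyte markers were higher, and 4 of 5 neutrophil, 5 of 5 macrophage, 6 of 6 fibroblast and 5 of 5 endothelial markers were lower in the knockout. In addition 1 of 4 adipocyte markers (median -1.17) and 3 of 6 smooth muscle markers (-0.22) were lower, 1 of 4 goblet cell markers was higher, and none of the 4 leukocyte or 4 skeletal muscle markers passed. The epithelial list mean was 12.25 to 12.61 in knockout DSS arrays and 11.13 to 12.47 in wild-type ones, and the fibroblast list mean 9.90 to 11.39 and 11.30 to 12.31. Their part in the difference of the subunits was not tested.

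In the chronic phase the wild type showed little change in these genes. Cox4i2 rose, at 0.17 ± 0.05 (adjusted p = 0.0352), and no member fell, where 5.79% of all genes rose and 8.58% fell, and the member median was -0.03. In 2 members DSS lay above the controls without overlap (6.23% of all genes) and in 2 below (8.76%). The signals of Cox4i2 were 8.21, 8.01, 8.07, 8.02 and 7.87 in controls and 8.22, 8.07, 8.35, 8.21 and 8.18 under DSS. The groups overlapped, and the call was lost when any 1 of 6 arrays was left out (DSS 1, 3 or 4, control 2, 4 or 5) and with series as a covariate. Cox7a1 stood at 10.80 to 11.12 in controls and 10.05 to 10.37 under DSS, without overlap, and its difference of -0.77 ± 0.31 did not pass (adjusted p = 0.0952). Among the lists outside the complexes, the biogenesis regulators gave 4 falls and 2 rises among 15 (median -0.05, lowest -1.71). Falls numbered 4 of 36 assembly factors, 2 of 18 citric acid cycle genes and 1 of 21 import and carrier genes, with no rise. Fatty acid oxidation gave no call, and glycolysis gave 1 rise and 1 fall among 16.

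Chronic DSS in the knockout gave changes in both directions. Of the 89 members 5 rose and 5 fell, which is 5.62% each way, where 2.47% of all genes rose and 5.47% fell. The share that fell was near that of all genes, and the member median was 0.04. Without overlap, 7 members were higher (2.82% of all genes) and 3 lower (5.52%). Those that fell, all of complex I, were Ndufs8 (-0.52 ± 0.11, adjusted p = 0.0038), Ndufb8 (-0.45 ± 0.14), Ndufs5 (-0.45 ± 0.11), Ndufa7 (-0.42 ± 0.11) and Ndufa11 (-0.32 ± 0.09). The 5 that rose were Atp5md (0.76 ± 0.21, adjusted p = 0.0224) and Atp5mpl (0.48 ± 0.15) of complex V, Ndufb2 (0.44 ± 0.10) and Ndufb6 (0.40 ± 0.11) of complex I, and Cox7a2l (0.44 ± 0.12). The other transcript cluster of Cox7a2l did not pass, at 0.28 (adjusted p = 0.313). Ndufa7 and Ndufb6 are named to complete these counts, after their values were seen. Among the lists outside the complexes, 2 of 15 biogenesis regulators fell and none rose (lowest -1.02). Assembly factors gave 3 falls and 1 rise among 36, and import and carrier genes 1 of each among 21. The citric acid cycle list gave 1 fall among 18, fatty acid oxidation 1 rise among 17 and glycolysis 2 rises among 16.

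Ndufs8, which binds 2 of the iron-sulphur clusters of complex I, stood at 11.66, 11.71, 11.85, 11.79 and 11.71 in the knockout chronic controls and at 11.54, 11.47, 10.99, 11.07 and 11.04 under DSS. All DSS arrays were lower, and arrays 3 to 5 lay below arrays 1 and 2. Atp5md, a subunit of the ATP synthase also known as DAPIT, stood at 10.75, 11.01, 11.01, 11.05 and 11.14 in controls and 11.30, 12.08, 11.83, 11.92 and 11.63 under DSS. The groups did not overlap, and its other 2 transcript clusters differed by 0.84 and 0.96. Of Cox7a1 the difference was -0.96 ± 0.31 (adjusted p = 0.0508).

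The counts in this comparison depended on single arrays. Without DSS array 2, 1 member rose and 8 fell, and without DSS array 1, 8 rose. The number that rose was 1 without DSS array 3, and 2 without DSS array 4 or control 1, 3 or 4. The number that fell was 3 without DSS array 3 or control 1 or 4, and 2 without DSS array 4 or 5. Of the marker lists, 1 of 4 skeletal muscle markers was called here, Myh2, which fell by 0.40, with list means of 8.11 to 8.22 in controls and 7.97 to 8.28 under DSS, and its part in the value of Cox7a1 was not tested. The 10 other lists of cell type markers gave no call, and the means of the colonocyte list were 12.68 to 12.82 in controls and 12.38 to 12.98 under DSS.

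**Figure D4:**
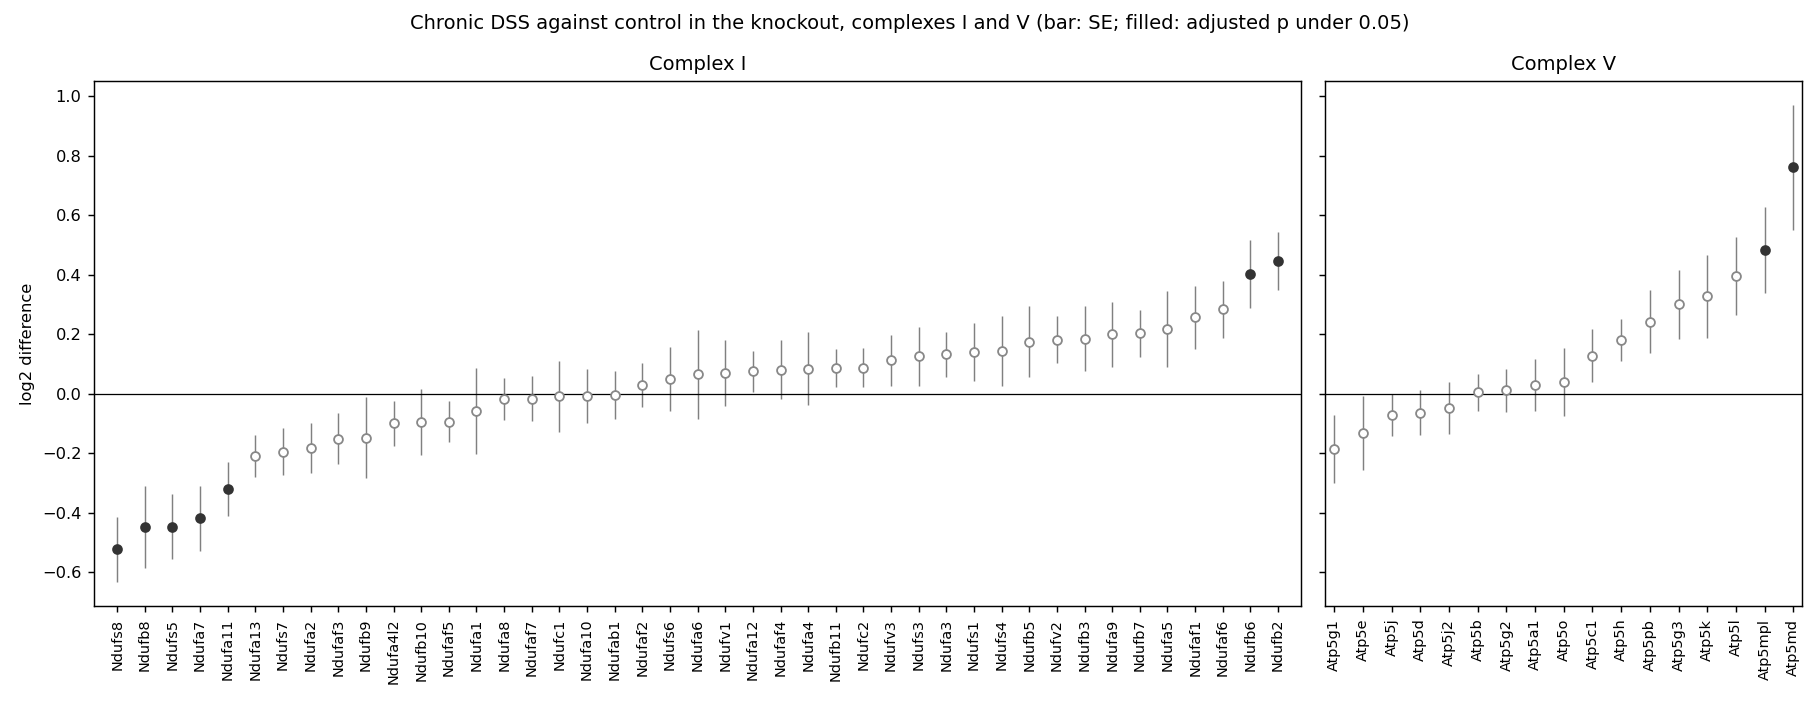
Log2 difference between chronic DSS and control in the knockout for each gene of complexes I and V, in order of size, with its SE (bar); filled points passed. The 5 genes that fell are all in complex I, from Ndufs8 at -0.52 to Ndufa11 at -0.32, and Atp5md at 0.76 is the largest rise.

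Under chronic DSS 2 members were lower in the knockout than in the wild type and none was higher, where 1.3% of all genes were lower and 1.18% higher. They were Ndufs8 (-0.47 ± 0.11, adjusted p = 0.0196) and Ndufa11 (-0.37 ± 0.09, adjusted p = 0.0234). Ndufs8 ranged from 11.62 to 11.84 in the wild-type DSS arrays, above all 5 knockout arrays. Neither passed with series as a covariate or in a fit of these 2 groups alone, and both lost the call without knockout DSS array 3, 4 or 5 or wild-type DSS array 3, and Ndufa11 also without wild-type DSS array 2. The series shift in the covariate fit comes from wild-type controls, the only chronic group with mice of 2 series, and is assumed equal under DSS. In 2 members the knockout was lower without overlap (1.9% of all genes) and in 1 higher (1.26%). The test of whether the chronic DSS effect differed between genotypes passed for no member by limma, with 20 at an unadjusted p under 0.05 (22.5%, against 15.2% of all genes). At the adjusted threshold 0.271% of all genes passed upward and 0.15% downward.

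**Figure D5:**
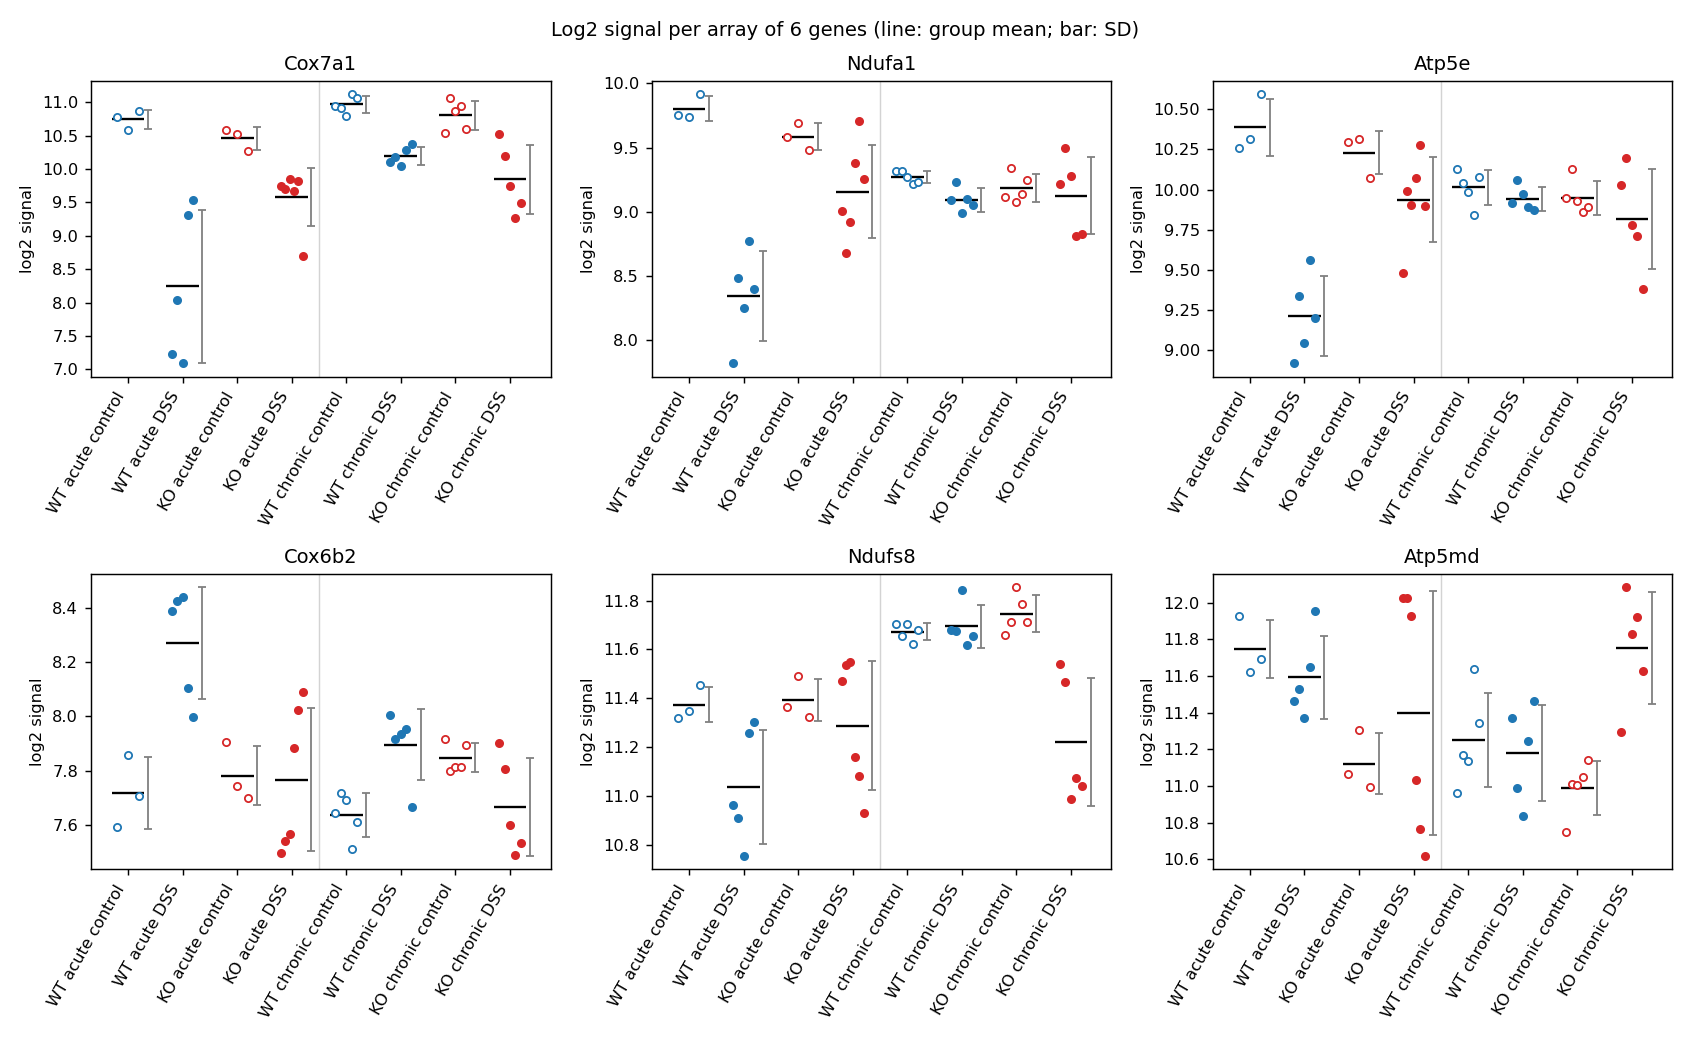
Log2 signal per array (points) of 6 genes by group, with group mean (line) and SD (bar); open points are controls and filled points DSS, blue wild type and red knockout. Cox7a1, Ndufa1 and Atp5e are lowest in wild-type acute DSS, Cox6b2 is highest there, and Ndufs8 is lower and Atp5md higher in knockout chronic DSS than in its controls.

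Between control animals of the 2 genotypes few members passed. In the acute controls 1 member, Ndufa2, was lower in the knockout (-0.47 ± 0.11, adjusted p = 0.0237), where 0.777% of all genes were lower and 0.341% higher. Its signals were 10.56, 10.46 and 10.51 in the wild type and 10.10, 10.03 and 9.97 in the knockout, without overlap. A total of 34 members (38.2%) were lower in the knockout without overlap, against 15% of all genes. Of the 89 differences 63 were below 0 and 26 above it, with a median of -0.08, against 0.01 over all genes. With series as a covariate no member passed, 44 differences were below 0 and 45 above it, and the median was 0.01. That fit takes the shift between the series from knockout DSS mice, the only acute group in both, and assumes it equal in controls. It therefore cannot separate genotype from series here. The call of Ndufa2 was lost when any 1 of the 6 control arrays was left out. In 5 members the knockout was higher without overlap, against 10.8% of all genes. In the chronic controls no member passed by limma, with 4 at an unadjusted p under 0.05 (4.49%, against 9.46% of all genes). At the adjusted threshold 0.0702% of all genes were higher and 0.0301% lower. There 2 members were higher without overlap (1.36% of all genes) and 1 lower (1.1%).

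The chronic DSS effect was compared with the acute one within each genotype. In the wild type 52 members were less negative in the chronic phase and 1 was more negative, where 9.3% of all genes passed upward and 7.71% downward, and the median was 0.46. The count of 52 became 26 without acute DSS arrays 1 and 3, where 4.5% of all genes passed upward. The differences were 1.73 ± 0.47 for Cox7a1 (adjusted p = 0.0122), 1.28 ± 0.22 for Ndufa1 (adjusted p = 0.000514) and 1.20 ± 0.21 for Cox6a1 (adjusted p = 0.00058). Cox8b was the 1 member in the other direction, at -0.88 ± 0.23 (adjusted p = 0.00822), having risen by 0.46 in the acute phase and stood at -0.43 ± 0.15 in the chronic phase (adjusted p = 0.0503). In the knockout no member passed by limma, with 14 at an unadjusted p under 0.05 (15.7%, against 11.4% of all genes). At the adjusted threshold 0.00502% of all genes passed in each direction. Phase and animal-number series cannot be told apart in the mean levels, though each DSS effect was taken against controls of its own phase.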

How the data were processed

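The authors deposited log2 values per transcript cluster, and the submitters' processing notes name RMA, robust multi-array averaging, without a version. No source gives the base of the logarithm. It was taken as 2 because values run from 3.03 to 14.96. Of 35511 clusters, 21789 had 1 gene symbol in the probe annotation, and the cluster of highest mean was kept per gene. This applied to 17 members with several clusters, which may share probes with near-identical copies. All arrays entered 1 model with 8 group means, with no filter on low values (limma 3.58.1, R 4.3.3, 29 residual and 3.18 prior degrees of freedom), and 12 contrasts were tested, two-sided. Arrays of a group count as different mice, since no animal number in the titles occurs more than once. Arrays carry no counts, and their number per group, 3 to 6, limits precision.

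The members, gene lists and tests were chosen with earlier results of these data known. The members named were the 3 largest changes in each direction per comparison and the largest per complex. Isoform pairs, Cox5a and Cox5b, Sdh genes and core subunits were also named. Alternatives were another prior, cyclic loess, all clusters, no dim genes, series as a covariate or alone, only the groups compared, and arrays left out. The NRF1 letters searched are a shorter core, taken after a longer form had been searched. The fit was tested on simulated data.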

Additional observations from a re-analysis of the deposited data

Results flagged for a closer look

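Some arrays lay far from the rest of their group, 12 times in 126 checks of a complex mean or gene within a group of 5 or 6 arrays. For a single check chance gives about 1 in 20. The checks share arrays and are not independent, so the count cannot be read against that rate. Knockout acute DSS array 6 was the lowest of its group for the mean of complex I (9.87, others 10.04 to 10.09), the mean of complex III (11.05, others 11.26 to 11.37) and Cox7a1 (8.70, others 9.67 to 9.84). Wild-type chronic DSS array 3 was low for complex I (9.84), complex V (11.34) and Cox8b (6.96), and high for Ndufs8 (11.84). In the same group array 5 was low for Cox6b2 (7.67, others 7.91 to 8.01). Among the knockout chronic controls array 1 was low for complex I (9.94) and array 5 for complex II (11.26) and complex V (11.44), in a group whose arrays lie close together. Wild-type acute DSS array 2 was low for Ndufa2 (9.52, others 9.70 to 9.77).

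The DSS effect differed between genotypes or phases for several members. In the acute phase 37 members passed the test of the difference between genotypes, among them Cox7a1 (1.62), Ndufa1 (1.03), Uqcr10 (0.96), Atp5e (0.88), Cox6a1 (0.88), Ndufa2 (0.77), Ndufs5 (0.52) and Cox6b2 (-0.57). In the wild type 53 members passed the test between the chronic and the acute effect, among them Cox7a1 (1.73), Ndufa1 (1.28), Cox6a1 (1.20), Atp5e (1.10), Uqcr10 (1.03), Atp5mpl (0.90), Ndufa2 (0.76), Ndufs5 (0.71), Sdhb (0.68) and Cox8b (-0.88).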

How the results depend on the processing

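Counts are of members that passed, higher then lower, with the share of all genes in the same fit in brackets. That share is not given for fits with 1 array left out. For wild-type acute DSS the count higher was 3 with cyclic loess (19.3%), 3 with only the groups compared (12.9%) and 2 without DSS arrays 1 and 3 (13.1%). For wild-type chronic DSS the count higher was 0 with series as a covariate (4.9%) or 1 series alone (5.93%) and 3 with only the groups compared (8.9%). The count lower there was 1 without dim genes (11.7%) or with cyclic loess (8.15%). It was 2 with series as a covariate (8.85%) or only the groups compared (11.3%) and 3 within 1 series (9.57%). For knockout chronic DSS 8 were higher with series as a covariate (3.35%) and 2 lower with only the groups compared (4.57%). Between acute controls the count lower was 2 with cyclic loess (0.742%), 0 with series as a covariate (0.923%) and 5 with only the groups compared (2.85%).

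Between genotypes under acute DSS the count higher was 14 within 1 series (6.62%), 19 with only the groups compared (4.4%) and 13 without wild-type arrays 1 and 3 (5.5%). The count lower was 2 with series as a covariate (15.2%), within 1 series (8.97%) and without the 2 arrays that had Y-linked signal (14.2%). Under chronic DSS the count lower was 0 with series as a covariate (0.0301%) or only the groups compared (0.0201%). For the acute interaction the count higher was 9 with only the groups compared (1.55%) and 14 without arrays 1 and 3 (3.47%). The count lower was 0 in both (1.13% and 2.35%) and with series as a covariate (2.72%). The chronic interaction gave 1 lower with cyclic loess (0.346%). Chronic against acute in the wild type gave 26 higher without arrays 1 and 3 (4.5%) and 2 lower without the Y-linked arrays (7.45%). In the knockout it gave 1 higher with series as a covariate (0.0602%).

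With 1 array left out at a time the counts higher and lower ranged from 2 to 5 and 64 to 72 for wild-type acute DSS, 0 to 0 and 0 to 1 for knockout acute DSS, 0 to 2 and 0 to 1 for wild-type chronic DSS, and 1 to 8 and 2 to 8 for knockout chronic DSS. Between genotypes they ranged from 0 to 0 and 0 to 1 in acute controls, 49 to 76 and 1 to 3 under acute DSS, and 0 to 1 and 0 to 4 under chronic DSS. For the acute interaction they were 17 to 57 and 0 to 1, for the chronic interaction 0 to 0 and 0 to 2, and for chronic against acute in the wild type 39 to 62 and 1 to 3.

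No named member that was called changed sign in these fits. Of the named calls 684 kept the threshold and 163 lost it over these alternatives, and 1093 and 162 with 1 array left out. No paired analysis was possible because the titles carry animal numbers that occur once and no replicate number shared between groups.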
